A study of Mus musculus with 6 samples.

Results

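The nuclear genes that encode the subunits of the mitochondrial respiratory chain were examined in fetal mouse gonads with and without Sox9. Members were the genes with a symbol that begins Nduf (followed by a, b, c, s or v), Uqcr, Cox (4 to 8) or Atp5, or that is Sdha, Sdhb, Sdhc or Sdhd, measured by a probe set annotated to exactly 1 gene. Where several probe sets measured a gene, the one with the highest 6-array mean stood for it. The rule found 89 of the 19937 genes of the table, on 113 probe sets. By symbol, 35 belong to complex I, 4 to complex II, 8 to complex III, 16 to complex IV and 17 to complex V. The remaining 9 are not subunits: 7 Ndufaf genes for assembly of complex I, Ndufa4l2, a relative of Ndufa4, and Cox7a2l, which helps to join complexes into supercomplexes. Another 4 matching symbols, among them Cox7c and Ndufb4, lay only on probe sets shared with other genes and were not analysed here.

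Gonads of Sox9flox/flox; Sf1:creTr/+ embryos, called the Sox9 mutant, were set against wild-type gonads, both taken at E13.5, in mid gestation, freed of the mesonephros, on a mixed background of C57BL6/J and 129. Sf1 is another name of Nr5a1, whose regulatory sequence drives Cre in the somatic cells of the gonad and deletes the floxed Sox9 there. Each group had 3 arrays, numbered 3, 4 and 6 (mutant, 12 gonads per pool) and 1, 2 and 5 (wild type, 6 gonads per pool), so pool size and genotype cannot be told apart. No array held gonads with Cre alone or floxed alleles alone, and nothing says that pools came from separate litters, so the spread that p-values measure may be a technical one.

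Respiratory complexes I, III and IV pass electrons from NADH to oxygen and pump protons across the inner mitochondrial membrane. Complex II feeds electrons from succinate, and complex V, the ATP synthase, uses the proton gradient to make ATP. Most subunits are encoded in the nucleus and a few in mitochondrial DNA. In the testis, Leydig cells depend on mitochondria for the first step of steroid synthesis, and some subunits have isoforms known from testis or from heart and skeletal muscle. Transcription of the nuclear genes is widely linked to the factors NRF1, GABP (of the ETS family) and YY1.

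RefSeq promoter windows of GRCm38.p6, from 250 bases before to 50 bases after the start of transcription, were found for 73 of the 89 members. The core of the NRF1 motif (GCATGCGC, either strand) lay in the windows of 12 of these (16.4%), against 688 of 17491 protein-coding genes (3.93%). The ETS motif (CCGGAAG, either strand) was found in 18 members (24.7%), against 2264 coding genes (12.9%), and the YY1 core (AAGATGG, either strand) in 10 members (13.7%), against 1256 (7.18%). Any of the 3 motifs was present in 34 members (46.6%) and in 21.8% of coding genes. The 3 windows below belong to members picked by their differences, none of which passed the test of genotype given further on. They are the complex IV gene and a complex V gene with some of the largest differences below 0 and the complex V gene with the largest above 0. No window was found for Ndufaf6, the member that did pass. All 3 windows hold a motif, as do those of 34 of the 73 members, and a link between motif and difference was not tested. Capitals mark the motifs, and the NRF1 core overlaps itself on the opposite strand in the first pair. Such a match is a description of letters and not a mapped binding site.
Cox6a1 (chr5:115348909-115349208, minus strand): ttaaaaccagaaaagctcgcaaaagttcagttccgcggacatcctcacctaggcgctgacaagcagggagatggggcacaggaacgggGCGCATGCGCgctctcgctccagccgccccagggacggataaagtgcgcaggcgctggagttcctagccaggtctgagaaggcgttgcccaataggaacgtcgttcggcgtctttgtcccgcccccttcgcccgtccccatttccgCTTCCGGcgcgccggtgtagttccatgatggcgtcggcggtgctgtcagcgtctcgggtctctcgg
Atp5k (chr5:108434350-108434649, minus strand): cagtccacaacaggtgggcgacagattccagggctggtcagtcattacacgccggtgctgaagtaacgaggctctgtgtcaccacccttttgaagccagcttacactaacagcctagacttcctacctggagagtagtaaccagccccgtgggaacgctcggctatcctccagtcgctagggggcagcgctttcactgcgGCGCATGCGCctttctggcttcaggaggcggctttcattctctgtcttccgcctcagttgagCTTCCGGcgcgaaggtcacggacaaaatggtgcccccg
Atp5pb (chr3:105959214-105959513, minus strand): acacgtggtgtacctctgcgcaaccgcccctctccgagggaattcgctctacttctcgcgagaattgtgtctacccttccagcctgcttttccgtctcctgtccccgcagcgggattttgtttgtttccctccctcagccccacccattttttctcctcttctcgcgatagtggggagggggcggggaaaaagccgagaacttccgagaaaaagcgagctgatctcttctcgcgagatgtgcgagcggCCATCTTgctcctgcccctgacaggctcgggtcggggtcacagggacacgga

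Values are deposited log2 values from RMA, which corrects background, normalizes arrays by quantiles and combines probes. They compare 1 gene between arrays and not the level of different genes. Receptor genes of smell and pheromone sensing, taken here as mostly silent, served to set a background mark of 6.67 log2, the 95th percentile of their 1208 probe sets. Sox9 measured 7.52, 7.78 and 7.60 log2 on mutant arrays 3, 4 and 6, against 8.82, 8.81 and 9.20 on wild-type arrays 1, 2 and 5. The floxed gene was thus lower on each mutant array, by a difference of -1.31 ± 0.14 log2 (SE; adjusted p of 0.00124 in limma). Among genes of the gonad's cell types, 6 of 7 Sertoli markers fell (median difference -2.94 log2), as did all 4 measured Leydig markers (-3.81), while all 6 pregranulosa (1.65) and all 5 meiotic germ cell markers (2.84) rose. The mean of the Sertoli markers was 6.62, 8.22 and 6.59 log2 on mutants 3, 4 and 6, so array 4 kept more of it, against 9.93 to 9.99 in wild type. Wild type 5 carried liver genes, with a mean of 9.95 log2 over 5 markers, against 6.31 to 6.81 on the other arrays. The 3 measured of 6 erythroid markers averaged 8.06 there, against 7.22 to 7.66. Slc4a1 measured 8.74 log2 there, against 7.66 to 8.06 on the others, and Hbb-bh1 6.98, against 5.75 to 6.80. Alas2, at 8.45 log2, lay below its value of 8.54 on wild type 2. In such bulk samples fewer cells of a type and less RNA per cell cannot be told apart.

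Against these changes the respiratory chain genes differed little between genotypes. None of the 80 subunit genes passed limma's adjusted p of 0.05, and of the 89 members 1, the assembly factor gene Ndufaf6, was lower and 0 were higher. Over all genes 6.94% were called, 2.64% higher and 4.3% lower. At an unadjusted p under 0.05 were 8 members (8.99%), 7 of them subunits, against 21.7% of all genes. The mutant and wild-type values did not overlap for 16 members (18.0%), 11 lower and 5 higher in the mutant, where 28.7% of all genes showed no overlap. The differences ran from -0.58 (Cox6a1) to 0.45 log2 (Cox7a1), against -4.70 to 4.11 over all genes. Their SD across members was 0.17 log2, against 0.35 across all genes.

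How small the differences were is bounded by their intervals. The 95% interval of the difference, not adjusted for the number of genes, lay within 1.5-fold in either direction for 75 members (84.3%) and within 2-fold for all 89. Over all genes 72.6% of intervals lay within 1.5-fold and 94.9% within 2-fold. The outermost bounds among members were -0.99 log2 for Cox6a1 and 0.93 log2 for Cox7a1. For 51 members the difference was smaller than the SD between arrays of a group, whose median was 0.13 log2.

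**Figure D1:**
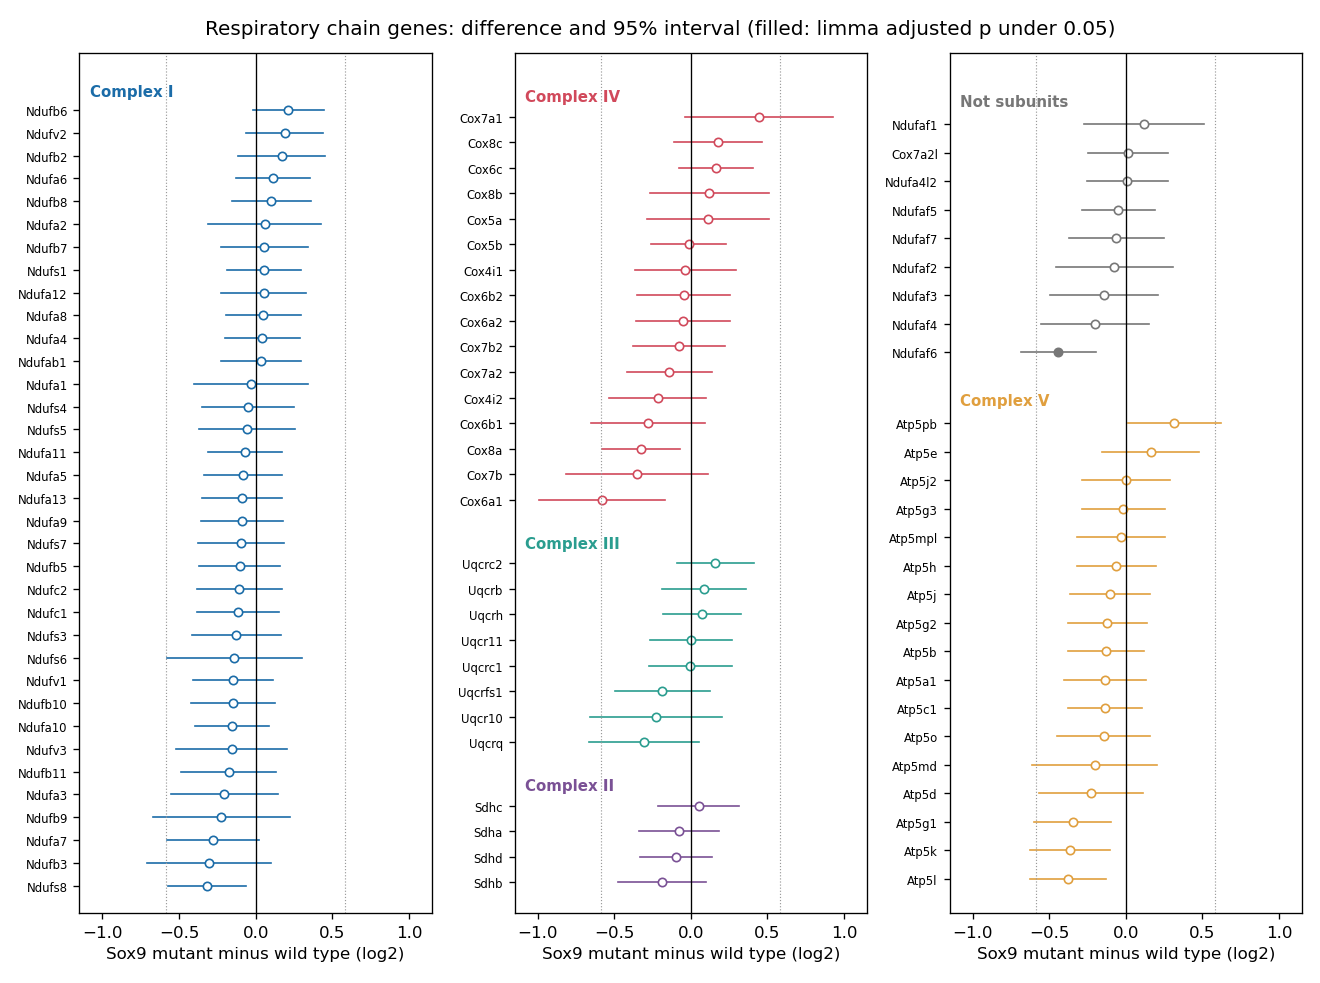
Difference between the Sox9 mutant and wild type (log2, x axis) for each of the 89 members, with its 95% interval, grouped by complex; dotted lines mark 1.5-fold and a filled point a limma adjusted p under 0.05. Only Ndufaf6 is filled, and the points run from -0.58 (Cox6a1) to 0.45 (Cox7a1).

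The members lay slightly below 0 more often than above it. Their median difference was -0.08 log2, with 62 below 0 and 27 above, against a median of 0.0041 over all genes, of which 49.2% lay below 0. Genes with strong signals shared that tilt: of the 1774 genes with a mean above 10 log2, 64.3% lay below 0 with a median of -0.08 log2. Of the 42 members above that level 71.4% lay below 0, also with a median of -0.08 log2, against 69.7% of all 89 members. Of the 13002 genes above the background mark 57.0% lay below 0, with a median of -0.04 log2, and 87 members lay above that mark. By complex the medians were -0.09 for complex I, -0.09 for complex II, -0.05 for complex IV and -0.13 log2 for complex V. Complex III had a median of -0.00035 log2, which became 0.073 with a further quantile normalization. That scaling brought complex I to -0.024, complex II to -0.025 and complex V to -0.075 log2.

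Complex I takes electrons from NADH and is the largest of the chain. Of its 35 measured genes 0 passed, 23 differences lay below 0 and 12 above. Ndufs8, an iron-sulfur subunit of the arm that carries electrons, measured 8.87, 9.01 and 9.03 log2 on mutants 3, 4 and 6, against 9.32, 9.18 and 9.36 on wild types 1, 2 and 5. All mutant values were below all wild-type values, with a difference of -0.32 ± 0.11 log2 (SE; limma adjusted p = 0.159, 95% interval -0.57 to -0.06). Ndufa7, an accessory subunit, measured 7.95, 7.86 and 7.91 log2 in the mutant, against 8.11, 8.01 and 8.42 in wild type, a difference of -0.28 ± 0.13 log2 (adjusted p = 0.300). These groups did not overlap either, and the difference was -0.16 within arrays 1 to 4 and -0.51 within 5 and 6. Ndufb3, of the membrane arm, averaged 7.78 ± 0.32 log2 in the mutant and 8.08 ± 0.22 in wild type (SD, n = 3 each; limma adjusted p = 0.418), and its groups overlapped.

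Other complex I genes leaned the opposite way. Ndufb6, Ndufv2 and Ndufb2, named after their values were seen, had all 3 mutant values above all wild-type values. Ndufb6, a membrane arm subunit, measured 11.02, 10.99 and 10.96 log2 in the mutant, against 10.76, 10.81 and 10.76 in wild type, a difference of 0.21 ± 0.10 log2 (SE; limma adjusted p = 0.311). Ndufv2, an iron-sulfur protein of the NADH-oxidising module, had a difference of 0.19 and Ndufb2 one of 0.17 log2. Ndufa4, listed here by its symbol though the protein is now placed with complex IV, measured 11.90 ± 0.04 log2 in the mutant and 11.86 ± 0.09 in wild type (SD, n = 3 each; adjusted p = 0.886). Complex I genes thus held members on both sides of 0, within a range of -0.32 to 0.21 log2.

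Assembly of complex I needs further proteins, among them those of the Ndufaf genes. Ndufaf6 measured 6.67, 6.82 and 6.84 log2 on mutants 3, 4 and 6, against 7.24, 7.25 and 7.18 on wild types 1, 2 and 5. The groups were separate and the spread within them small. The gene fell by 0.44 ± 0.11 log2 (SE), a 1.36-fold difference (limma adjusted p = 0.0488), and its mutant values lay close to the background mark, where RMA understates differences. The call was lost when any 1 array was left out (adjusted p from 0.0634 to 0.161) and among arrays 1 to 4 alone (0.0913), with differences between -0.49 and -0.39 log2. The other 6 Ndufaf genes did not pass and had differences from -0.20 (Ndufaf4) to 0.12 log2 (Ndufaf1). Ndufaf5 was one of 2 members with a mean below the background mark. Cox7a2l and Ndufa4l2 each had a difference of 0.01 log2.

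Complex II is the only complex of the chain encoded wholly in the nucleus. Its 4 genes showed the narrowest range, but it has the fewest genes, and a range tends to widen with their number. Sdhb, the iron-sulfur subunit, measured 9.40, 9.44 and 9.20 log2 in the mutant, against 9.62, 9.36 and 9.63 in wild type. The groups overlapped (difference -0.19 ± 0.13 log2, SE; limma adjusted p = 0.485), and it was -0.43 log2 within arrays 5 and 6 and -0.07 within arrays 1 to 4. Sdhd, a membrane anchor, had a difference of -0.10 log2 with separate groups (adjusted p = 0.692), and Sdha, the flavoprotein that oxidises succinate, one of -0.08. Sdhc, the other anchor, had a difference of 0.05 log2.

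In complex III, which passes electrons from coenzyme Q to cytochrome c, 4 genes lay below 0 and 4 above. Uqcrq, a small subunit, measured 8.78, 9.16 and 8.62 log2 in the mutant, against 9.35, 9.09 and 9.03 in wild type, a difference of -0.30 ± 0.16 log2 (SE; limma adjusted p = 0.351). Mutant 4 lay among the wild-type arrays. Uqcr10 had a difference of -0.23 and Uqcrfs1, the Rieske iron-sulfur protein, one of -0.19 log2, both with overlap; without wild type 5 these were -0.028 and -0.082 log2. Uqcrc2, a core protein, measured 11.73, 11.69 and 11.70 log2 in the mutant, against 11.50, 11.45 and 11.68 in wild type, a difference of 0.16 log2 (adjusted p = 0.500). All mutant values were above all wild-type values, and the difference was 0.23 within arrays 1 to 4 and 0.02 within 5 and 6. The other core protein gene, Uqcrc1, had a difference of -0.0023 log2.

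Complex IV, cytochrome c oxidase, held the widest range of all complexes. Cox6a1, the broadly expressed isoform of a small regulatory subunit, measured 9.41, 9.37 and 9.99 log2 on mutants 3, 4 and 6, against 10.07, 10.05 and 10.39 on wild types 1, 2 and 5. Every mutant value was below every wild-type value, but mutant 6 lay close to wild types 1 and 2. The difference was -0.58 ± 0.18 log2 (SE), a 1.49-fold difference, with a limma adjusted p of 0.113. Within arrays 1 to 4 it was -0.67 log2 and within 5 and 6 it was -0.40. The gene passed with arrays 5 and 6 fitted as a batch (adjusted p = 0.0122), without mutant 6 (0.0176), among arrays 1 to 4 alone (0.0319) and with array weights (0.0431), and in no other alternative. Leaving out single arrays gave adjusted p up to 0.314, and without wild type 5 the difference was -0.47 log2.

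Of the other broadly expressed complex IV genes, Cox8a measured 9.22, 9.33 and 9.27 log2 in the mutant, against 9.63, 9.47 and 9.70 in wild type, with separate groups and a difference of -0.33 ± 0.11 log2 (SE; limma adjusted p = 0.149). Cox7b averaged 9.80 ± 0.39 log2 in the mutant and 10.15 ± 0.26 in wild type (SD, n = 3 each; adjusted p = 0.413), and Cox6b1 had a difference of -0.28 log2. Cox6c, named after its values were seen, was the single complex IV gene with all mutant values above wild type (difference 0.16 log2, adjusted p = 0.463). Cox4i1 (-0.04) and Cox5b (-0.01), which encode nuclear subunits around the core that mitochondrial DNA encodes, had differences close to 0 that turned positive, to 0.03 and 0.04 log2, with a further quantile normalization. Cox7a2 had a difference of -0.14 log2.

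Isoforms known from particular tissues gave 0 limma calls among 7, with 0 at an unadjusted p under 0.05. Over all genes 6.94% were called and 21.7% lay under that unadjusted p, and 7 genes are too few to set against these shares. Cox7a1, the heart and skeletal muscle isoform, measured 8.56, 8.94 and 8.27 log2 in the mutant, against 8.50, 8.14 and 7.79 in wild type. The groups overlapped, and the difference of 0.45 ± 0.21 log2 (SE; limma adjusted p = 0.300) was 0.43 within arrays 1 to 4 and 0.48 within 5 and 6. Without mutant 4 or wild type 5 it was 0.27 log2. The muscle isoforms Cox6a2 (-0.05) and Cox8b (0.12 log2) had means of 7.10 and 6.73 log2, close to the background mark. Among 5 striated muscle markers 1, Actn2, fell by 0.54 log2, and their mean was 6.69 to 6.84 log2 on mutant arrays and 6.79 to 6.999 on wild-type arrays. Of these markers 0 were called higher. Differences lay below 0 for 4 and above 0 for 1, Myl1 (0.14 log2), and 2 markers had means below the background mark. Cox4i2, an isoform known from lung, had a difference of -0.22 log2. Of the isoforms known from testis, Cox6b2 had a difference of -0.05 and Cox8c one of 0.18 log2. Cox7b2, a relative of Cox7b, had a mean of 4.80 log2, below the background mark, and its level was not detectable above background.

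Complex V had the lowest median, with 15 of 17 genes below 0, but 0 passed limma's test and 4 (23.5%) had an unadjusted p under 0.05, against 21.7% of all genes. Atp5k, which encodes subunit e of the membrane part, measured 8.55, 8.80 and 8.66 log2 in the mutant, against 9.11, 8.95 and 9.04 in wild type. The groups were separate, with a difference of -0.36 ± 0.12 log2 (SE; limma adjusted p = 0.119) that was -0.36 within arrays 1 to 4 and -0.38 within 5 and 6. Atp5g1 measured 9.91, 9.88 and 9.83 log2 in the mutant, against 10.33, 10.23 and 10.10 in wild type (difference -0.35 ± 0.11 log2; adjusted p = 0.123). Atp5g1, Atp5g2 and Atp5g3 encode the same mature proton-carrying ring subunit, and the other two had differences of -0.12 and -0.02 log2, that of Atp5g3 becoming 0.06 with a further quantile normalization. Atp5b, the catalytic beta subunit, averaged 12.85 ± 0.09 log2 in the mutant and 12.98 ± 0.07 in wild type (SD, n = 3 each; adjusted p = 0.602). The alpha subunit gene Atp5a1 and the gamma subunit gene Atp5c1 each had a difference of -0.14 log2.

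Atp5l, which encodes subunit g of the same membrane part, showed how much rests on the choice of probe set. Its brightest probe set measured 10.09, 10.06 and 9.93 log2 in the mutant, against 10.41, 10.34 and 10.46 in wild type, a difference of -0.38 ± 0.11 log2 (SE; limma adjusted p = 0.0861). It passed among probe sets above the background mark (adjusted p = 0.0441) and with trend and robust variances (0.0470). The other 4 probe sets annotated to Atp5l had differences from -0.10 to 0.21 log2, and the mean of all 5 gave -0.07 (adjusted p = 0.767). The value of Atp5l is therefore uncertain. Among 17 members with more than 1 probe set, signs also differed for Atp5md (-0.20 to 0.09), Cox5b (-0.01 to 0.05) and Ndufc1 (-0.12 to 0.07 log2), and 0 of their probe sets were called. Atp5pb, the peripheral stalk subunit b, stood apart in the other direction. It was named after its values were seen and measured 11.60, 11.51 and 11.76 log2 in the mutant, against 11.27, 11.14 and 11.52 in wild type, a difference of 0.32 ± 0.13 log2 (adjusted p = 0.237). The groups overlapped, and its second probe set gave 0.20.

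**Figure D2:**
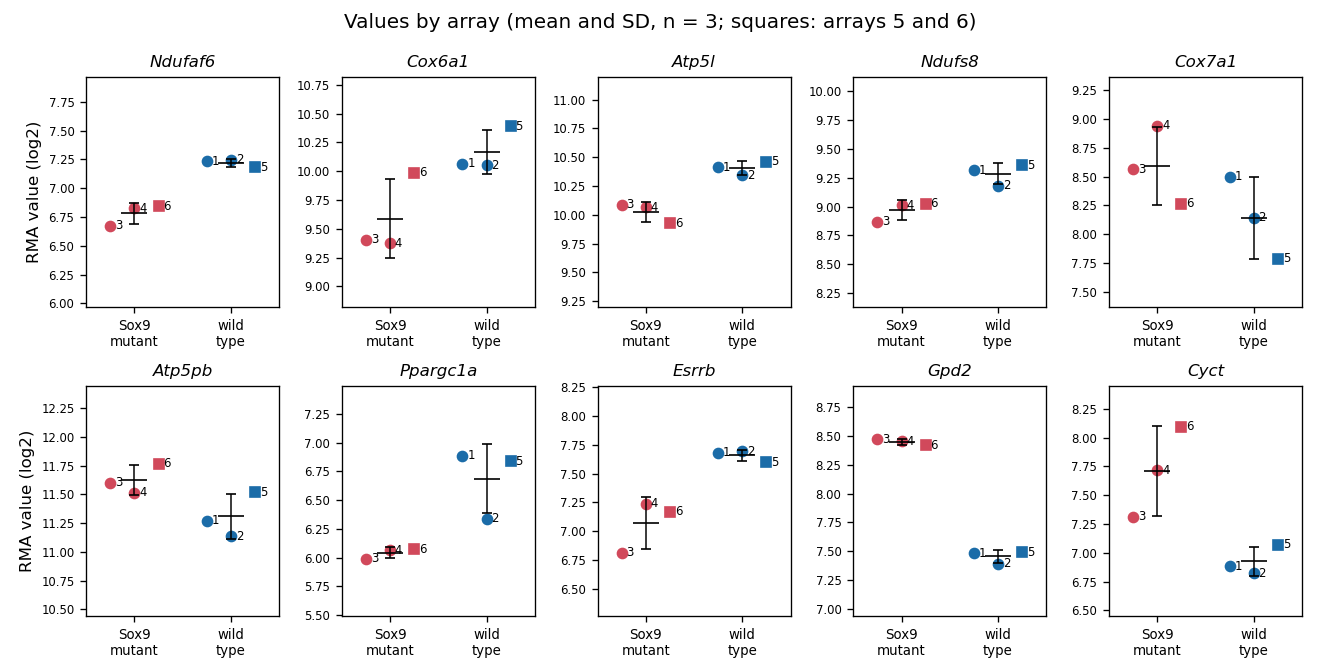
RMA value (log2, y axis) on each mutant (red, left) and wild-type (blue, right) array, with the mean and SD of 3 arrays, for 6 members and 4 genes of companion lists; the y range differs between panels and squares are arrays 5 and 6. Gpd2 and Ndufaf6 show separate groups with little spread, while in Cox6a1 mutant 6, at 9.99, lies close to wild type 2, at 10.05, and in Cox7a1 the groups overlap.

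Arrays 5 and 6 differed from arrays 1 to 4 in both genotypes, and for many members by more than the genotypes differed. The labels name no batch. Each genotype had a single array on that side, wild type 5 and mutant 6, so array number cannot be told apart from the makeup of those pools. A difference within arrays 5 and 6 is thus one between single arrays. For 53 of the 89 members the shift between array numbers was larger in size than the genotype difference. Its median size was 0.15 log2, against 0.12 log2 for genotype. The share of all genes with a larger shift was not counted, so this count does not set the members apart from other genes. Cox6a1 was 0.46 log2 higher on arrays 5 and 6, Ndufs6 0.53 and Cox7b 0.51, while Ndufb9 had a shift of -0.54 and Cox7a1 one of -0.51 log2. Over all genes the first principal component (56.6% of the variance) separated mutant from wild type. Over the members the first component did not: its weights (47.8%) were 0.66 and 0.35 on wild type 5 and mutant 6, -0.51 and -0.39 on mutants 3 and 4, and 0.04 and -0.15 on wild types 1 and 2. The members' second component (29.1%) did separate them, with weights of -0.29, -0.13 and -0.62 on mutants 3, 4 and 6, against 0.61, 0.36 and 0.07 on wild types 1, 2 and 5. The second component over all genes (19.1%) had weights of 0.68 on mutant 6 and 0.46 on wild type 5. On the other arrays its weights were -0.34 to -0.23, so the split by array number was not limited to the members. Within arrays 1 to 4 the members' median genotype difference was -0.10 and within 5 and 6 it was -0.07 log2. The sign was the same in both for 69 members, a count not made over all genes either. The part of the liver and erythroid marker signal on wild type 5 in these shifts was not tested.

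**Figure D3:**
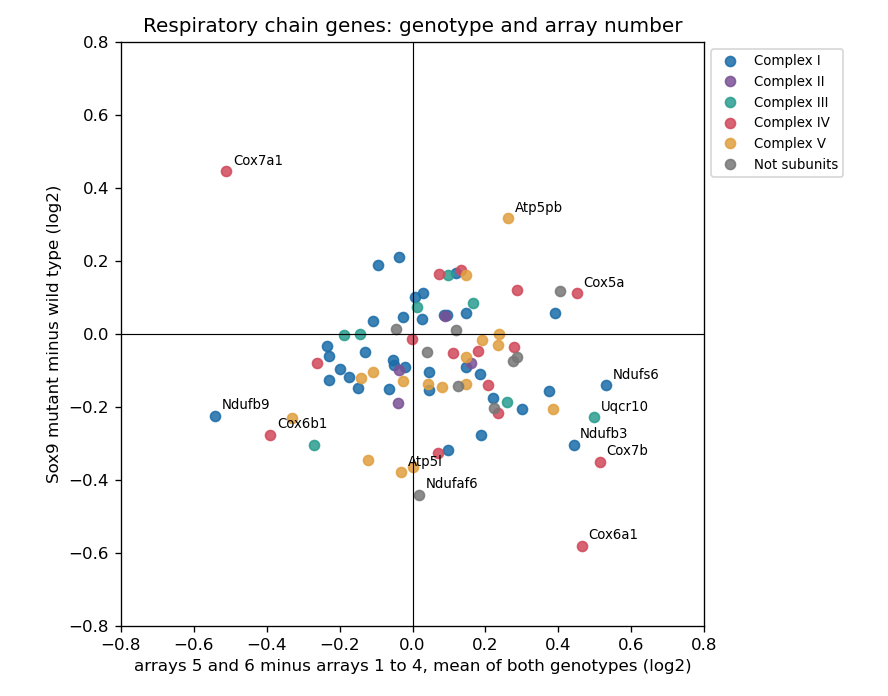
Each point is 1 member, coloured by complex; the x axis gives arrays 5 and 6 minus arrays 1 to 4, averaged over genotypes, and the y axis the Sox9 mutant minus wild type (both log2). Points spread from -0.54 (Ndufb9) to 0.53 (Ndufs6) along x, and from -0.58 (Cox6a1) to 0.45 (Cox7a1) along y.

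Among lists of related mitochondrial genes, the share called was 0 for those encoded in mitochondrial DNA, assembly factors, the tricarboxylic acid cycle and energy carriers, and 10.5% and 11.1% for electron carriers and regulators. The shares over all genes were 6.94% called and 21.7% at an unadjusted p under 0.05 in limma. The mitochondrial DNA genes COX2 and ND3, subunits of complexes IV and I, were the measured members of a list of 13. COX2 had 13.20 ± 0.13 log2 in the mutant and 13.17 ± 0.18 in wild type, and ND3 had 13.51 ± 0.08 in the mutant and 13.49 ± 0.06 in wild type (SD, n = 3 each; limma adjusted p = 0.941 and 0.939). Of 39 assembly factor genes outside the rule 0 passed, with 5 (12.8%) at an unadjusted p under 0.05 and a median of -0.09 log2. Lrpprc and Oxa1l, needed for stability of mitochondrial mRNA and for membrane insertion, had differences of 0.06 and 0.04 log2. Of 18 genes of pyruvate dehydrogenase and the tricarboxylic acid cycle 0 passed, with 1, Mdh2, at an unadjusted p under 0.05 (difference -0.29 log2, adjusted p = 0.219). Idh2 had a difference of -0.18 log2. In the list of adenine nucleotide, phosphate and energy carriers 0 of 9 passed (lowest adjusted p = 0.155), 2 had an unadjusted p under 0.05, and the differences ran from -0.29 to 0.75 log2. Of the 9 differences 5 lay below 0 and 4 above. The genes with the highest means are named here. Slc25a4, 1 of the 2 under that unadjusted p, had a difference of -0.29 (limma adjusted p = 0.174). Slc25a5, not among those 2, had -0.25 log2 (0.384).

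Genes that feed electrons to the chain held the smallest adjusted p of these lists. Gpd2, the mitochondrial glycerol-3-phosphate dehydrogenase that passes electrons to coenzyme Q, measured 8.47, 8.46 and 8.42 log2 on mutants 3, 4 and 6, against 7.48, 7.39 and 7.49 on wild types 1, 2 and 5. The groups were far apart relative to their spread. The difference was 0.99 ± 0.10 log2 (SE), or 1.99-fold, at a limma adjusted p of 0.00107. It passed in all 15 settings run, the main one included. Cyct, the cytochrome c gene of testis, measured 7.31, 7.72 and 8.10 log2 in the mutant, against 6.88, 6.82 and 7.07 in wild type. It rose by 0.78 ± 0.19 log2 (adjusted p = 0.0432), a call held in 7 of 15 settings, with adjusted p up to 0.157. It was lost when any array other than mutant 3 was left out, with either change of scaling and among arrays 1 to 4. Meiotic germ cell markers averaged 9.89, 9.19 and 8.34 log2 on mutants 3, 4 and 6, against 6.52, 6.18 and 5.59 on wild types 1, 2 and 5. Their part in the difference of Cyct was not tested. These 2 were the genes that passed among 19 of electron carriers and coenzyme Q synthesis (10.5% of the list, against 6.94% of all genes), with 9 (47.4%, against 21.7% of all genes) at an unadjusted p under 0.05. The list went both ways, with 10 differences below 0 and 9 above, a median of -0.0014 and a range of -0.67 to 0.99 log2.

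Among 18 regulators of mitochondrial biogenesis and of mitochondrial DNA 2 fell, 11.1% of the list beside 4.3% of all genes lower. At an unadjusted p under 0.05 in limma were 4 (22.2%, against 21.7% of all genes). Ppargc1a, the coactivator that promotes mitochondrial biogenesis, measured 5.99, 6.06 and 6.07 log2 in the mutant, against 6.88, 6.34 and 6.84 in wild type, and fell by 0.64 ± 0.15 log2 (SE; limma adjusted p = 0.0437). All mutant values and that of wild type 2 lay below the background mark, so the size of the fall may be understated. Its 6-array mean of 6.36 log2 was also below the mark, so the background filter left the gene out. It passed in 8 of the 14 settings that held it. Esrrb, an orphan nuclear receptor, measured 6.81, 7.24 and 7.17 log2 in the mutant, against 7.68, 7.69 and 7.60 in wild type, and fell by 0.59 ± 0.14 log2 (adjusted p = 0.0374). Both calls were lost with some single arrays left out, up to adjusted p = 0.173 for Ppargc1a and 0.137 for Esrrb, and among arrays 1 to 4 alone. Sertoli markers, at 6.59 to 8.22 log2 in the mutant and 9.93 to 9.99 in wild type, moved the same way. So did Leydig markers, at 6.33 to 8.85 log2 in the mutant and 10.85 to 10.93 in wild type. Of 5 germ cell markers 2 had differences below 0, with 1, Dppa3, called (-1.55 log2), and 3 above. The part of any of these cell types was not tested. The median of the list was -0.06 log2.

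Genes of the mitochondrial ribosome, which makes the subunits encoded in mitochondrial DNA, had 3 of 77 lower and 0 higher, 3.90% of the list beside 4.3% of all genes lower. Mrps30 measured 7.78, 7.72 and 7.72 log2 in the mutant, against 8.50, 8.38 and 8.44 in wild type, and fell by 0.70 ± 0.11 log2 (SE; limma adjusted p = 0.00582), passing in all 15 settings. Mrps27 fell by 0.63 and Mrps18b fell by 0.61 log2 (adjusted p = 0.0305 and 0.0221), calls that were lost without some single arrays (adjusted p up to 0.126 and 0.0854). The list's median was -0.13 log2 with 64 genes below 0. Cytosolic ribosomal protein genes gave 0 calls of 60, against 6.94% of all genes, with a median of -0.03 log2. At an unadjusted p under 0.05 in limma were 5 (8.33%, against 21.7% of all genes). Rpl9 had a difference of -0.02 and Rps18 one of -0.10 log2.

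**Figure D4:**
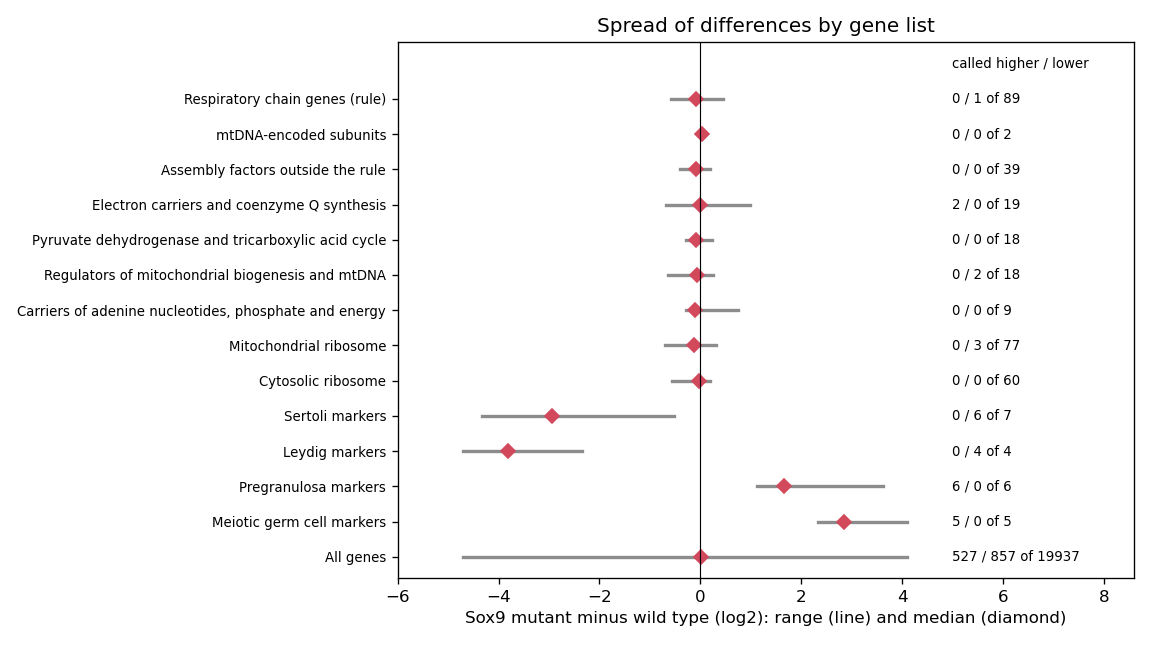
Range (line) and median (diamond) of the differences between the Sox9 mutant and wild type (log2, x axis) for the respiratory chain genes, companion lists, 4 marker lists and all genes, with the genes called higher and lower by limma at right. The respiratory chain genes span -0.58 to 0.45, while the medians of the 4 marker lists lie at -3.81 to 2.84.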

How the data were processed

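Gonad RNA (300 ng per array) was measured on 6 Affymetrix arrays, 3 per group. The deposited values are log2 values that the authors made with RMA, per the submitters' processing notes; neither its version nor its settings are given there. Values ran from 2.45 to 14.49. Of 34760 rows, 6573 with identifiers below the first annotated one were left out as controls. The other 28187 were tested, 2-sided, by lmFit and eBayes of limma (version 3.58.1, run in R 4.3.3), with Benjamini-Hochberg adjustment over them all, and checked on simulated data. Of these, 21640 probe sets had 1 gene, 1321 several and 5226 none, and 21553 matched RefSeq (GRCm38.p6) by gene number. The number of arrays limits the precision.

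Members and lists were chosen with earlier results of these data known. Genes named were called members, the 3 largest differences and the highest mean of each complex, isoform sets, members with probe sets of opposite sign, and called genes of each list (or its 2 highest means). Other members given as the ends of a range, as the largest shifts between array numbers, or because their groups did not overlap were named after their values were seen, as were Sdhc, Uqcrc1, Atp5a1, Atp5c1, Cox7a2l and Ndufa4l2. The calls in the other marker lists were germ cell (1 of 5 lower), endothelial (0 of 4 called), macrophage (0 of 4), liver (0 of 5), erythroid (1 of 3 lower), mesonephros (1 of 4 higher and 1 lower) and smooth muscle genes (1 of 4 higher and 2 lower). Of these lists without a call, 3, 0 and 0 genes had an unadjusted p under 0.05 in limma. Alternatives were further quantile normalization, a common median, a filter at the background mark, trend and robust variances, array weights, arrays 5 and 6 as a batch, leaving out each array, the mean of a gene's probe sets, and a threshold of 0.01; arrays 1 to 4 alone were added after the data were seen. Figures were drawn with matplotlib 3.10.9.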

Additional observations from a re-analysis of the deposited data

How the results depend on the processing

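No paired analysis was possible because the groups share no array number. No member was higher in any setting run; 1 was lower in the main fit, 2 with the background filter, trend and robust variances, array weights or the batch term, 0 at a threshold of 0.01, and 0 to 1 with single arrays left out, where the 1 without mutant 6 was Cox6a1. Genes called over the table numbered 262 to 546 higher and 330 to 746 lower with single arrays left out, 820 higher with the batch term, 513 lower among arrays 1 to 4, and 199 higher and 328 lower at 0.01. Quantile normalization moved the median of complex I to -0.024, of complex II to -0.025 and of complex III to 0.073 log2. With single arrays left out the medians ran from -0.11 to -0.041 (complex I), -0.10 to -0.063 (II), -0.045 to 0.057 (III), -0.10 to -0.019 (IV) and -0.15 to -0.079 (V). In the mitochondrial lists, 2 genes were higher and 5 lower in the main fit; 1 was higher with quantile normalization, a common median or arrays 1 to 4, and 4 with the batch term, while 2 were lower among arrays 1 to 4 and 8 with the mean of a gene's probe sets (1 to 2 higher and 1 to 6 lower with single arrays left out). Sox9 fell in every setting run. Signs turned, with no call, for Atp5g3 (0.061), Cox4i1 (0.031), Cox5b (0.040) and ND3 (-0.011) with quantile normalization, Cox5b with the mean of probe sets (0.020) and Oxa1l among arrays 1 to 4 (-0.00079). With single arrays left out Atp5g3 ran from -0.093 to 0.042, Cox4i1 from -0.15 to 0.048, Cox5b from -0.048 to 0.038, Cox6a2 from -0.185 to 0.030, Cox6b2 from -0.15 to 0.058, Cox7b2 from -0.16 to 0.012, Cox8b from -0.049 to 0.30, COX2 from -0.070 to 0.10, ND3 from -0.016 to 0.060, Oxa1l from -0.022 to 0.087 and Rpl9 from -0.055 to 0.0017 log2. Of the named members not called, with a difference of at least 0.15 log2 in size, Ndufb3 ran from -0.47 to -0.15, Ndufa7 from -0.36 to -0.16, Sdhb from -0.28 to -0.11, Uqcrq from -0.46 to -0.19, Uqcr10 from -0.36 to -0.028, Uqcrfs1 from -0.29 to -0.082, Cox7b from -0.56 to -0.17, Cox6b1 from -0.39 to -0.13, Cox4i2 from -0.30 to -0.090, Cox7a1 from 0.27 to 0.63, Cox8c from 0.072 to 0.26 and Atp5md from -0.35 to -0.020, each a move of over 1.5 times. The causes were not tested. Signal near background limits Cox7b2, Ndufaf5, Cox6a2, Cox8b and Ppargc1a.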
